A study of Mus musculus with 574 samples.

Results

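The genes described here are 37 genes of DNA replication and S phase, chosen as a named list and kept because each has a row in both the pool table (23706 genes) and the single-cell table. RNA was read with Smart-seq2, which copies whole transcripts from very small inputs, in developing ventral midbrain of C57BL/6 mouse embryos. All embryos were heterozygous for Lmx1a-EGFP, a reporter that marks cells with an active Lmx1a gene, which is active early in midbrain dopamine progenitors, with green fluorescent protein (GFP). The libraries were 24 pools of 100 cells, 6 each of E13.5 GFP positive, E13.5 GFP negative, E10.5 GFP positive and E10.5 GFP negative cells (E for embryonic day). There were also 550 single cells, 90 of them from E11.5 and more from each of E10.5, E12.5 and E13.5. The GFP negative cells are whatever else the dissected tissue held. The labels name no embryo or litter, so a p-value between groups of pools weighs pool-to-pool spread alone, some of which may be technical. For single cells each stage is 1 sample.

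Chromosomes are copied once per cell cycle. In G1 the origin recognition complex, Cdc6 and Cdt1 load the MCM helicase on origins. In S phase Cdc45 and the GINS complex switch that helicase on, polymerase alpha with primase starts each strand, and the clamp Pcna, set in place by replication factor C, holds the polymerases on DNA. Flap endonuclease and DNA ligase join the lagging-strand pieces, and ribonucleotide reductase and thymidylate synthase supply nucleotides. Many of these genes are switched on by E2F factors once cyclin E and its kinase have released the retinoblastoma brake. In the early ventral midbrain, dividing progenitors line the ventricle and give rise to neurons that no longer divide.

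Values are RPKM, reads scaled to the length of the transcript and the size of the library. Pools held an estimated 1.30 to 3.67 M reads and cells 0.401 to 7.47 M. EGFP followed the sort, with 51.1 to 80.3 RPKM in E13.5 GFP positive pools against 0 in every E13.5 GFP negative pool, and 170.4 to 230.7 RPKM in E10.5 GFP positive pools against 0 to 5.82 RPKM in E10.5 GFP negative pools. The summed RPKM of 12 neural progenitor markers was at least 667 in every pool and that of 12 pan-neuronal markers at least 332, so both kinds of marker were present in every group. Of the 24 pools, 1 stood apart. E13.5 GFP negative replicate 6 had a mean member log2(RPKM + 1) of 2.52, against 3.45 to 3.94 in the other 5 pools of its group, and it listed 7 members at 0. Its estimated depth (2.96 M reads) and its 13489 genes at 1 RPKM or more were within the range of the other pools. Within its group that number of genes was the lowest, against 13892 to 14183 in the other 5 pools. Values of E13.5 GFP negative pools include it unless stated otherwise, and several results, but not all, are also given without it. The E10.5 GFP negative pools carried blood and vessel transcripts, described with the GFP comparison at that stage.

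Promoter sequences are shown because several members are textbook E2F targets. Any part of E2F factors in the differences between groups was not tested. RefSeq promoter windows of GRCm38.p6, from 250 bases before to 50 after the annotated start, were given for 32 of the 37 members. The 4 E2F-like words TTTCCCGC, TTTCGCGC, TTTGCCGC and TTTGGCGC were searched on both strands, and the words can overlap each other. At least 1 word was found in 12 of 32 members (37.5%), against 704 of 27025 genes with a window (2.60%). For 8 of the 32 members a word lay wholly before the start. Among other lists, 12 of 37 other replication genes with a window held a word (32.4%), as did 7 of 14 E2F and pocket protein genes (50%), but 1 of 17 mitosis genes (5.88%). The word CCAAT, on either strand, was in 18 of 32 members (56.2%), 16 of 17 mitosis genes (94.1%) and 41.1% of all genes. A match is a description of the letters and does not show binding, and a window without one says nothing of the factor. In the lines that follow, each holding the 170 bases before the start of a member on the strand of the gene, capitals mark the E2F-like words. Mcm5 and Mcm6 are helicase subunits with overlapping words on both strands, and Orc1 is an ATP-binding subunit of the origin recognition complex. Pola1 and Rfc3 are members named in the GFP comparison, and Rrm2, a member with a very large fall, has none of the 4 words. Mcm7 and Cdc6 also hold a word in these 170 bases and are not printed. The lines were picked and do not show how common the words are. Bases just after the start lay in a transcript of the gene for 33 of the 37 windows of these 32 members. For the Mcm5 and Mcm6 windows they did not, so those 2 starts are less certain.
Mcm5 (chr8:75109339-75109508, plus strand): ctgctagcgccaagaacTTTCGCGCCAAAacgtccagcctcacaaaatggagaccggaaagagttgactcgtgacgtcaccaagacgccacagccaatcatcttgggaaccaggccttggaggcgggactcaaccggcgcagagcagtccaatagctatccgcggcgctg
Mcm6 (chr1:128359706-128359875, minus strand): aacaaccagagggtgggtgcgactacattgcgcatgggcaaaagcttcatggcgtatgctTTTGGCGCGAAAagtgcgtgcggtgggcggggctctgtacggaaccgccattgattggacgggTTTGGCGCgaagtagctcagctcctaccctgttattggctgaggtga
Orc1 (chr4:108579284-108579453, plus strand): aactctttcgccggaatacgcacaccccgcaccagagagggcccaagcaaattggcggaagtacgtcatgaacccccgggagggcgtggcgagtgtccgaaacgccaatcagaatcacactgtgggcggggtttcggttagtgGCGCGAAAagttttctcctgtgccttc
Pola1 (chrX:93632156-93632325, minus strand): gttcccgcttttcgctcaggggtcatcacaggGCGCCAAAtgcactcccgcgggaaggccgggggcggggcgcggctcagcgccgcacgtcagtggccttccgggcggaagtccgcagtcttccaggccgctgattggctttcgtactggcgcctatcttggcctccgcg
Rfc3 (chr5:151651209-151651378, minus strand): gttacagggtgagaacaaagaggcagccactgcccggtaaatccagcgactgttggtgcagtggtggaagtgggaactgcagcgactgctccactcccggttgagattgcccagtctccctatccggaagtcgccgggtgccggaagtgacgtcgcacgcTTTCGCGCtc
Rrm2 (chr12:24708084-24708253, plus strand): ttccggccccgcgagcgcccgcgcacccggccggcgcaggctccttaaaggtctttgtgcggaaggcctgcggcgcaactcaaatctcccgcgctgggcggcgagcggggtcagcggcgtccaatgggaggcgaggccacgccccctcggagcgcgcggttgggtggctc

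The first comparison asked how the replication genes differ between E13.5 and E10.5 within each GFP class. All 37 members were lower at E13.5 in GFP positive pools, and all 37 were lower in GFP negative pools (limma, adjusted p under 0.05). Of all 15871 genes tested, 29.6% were lower in the GFP positive comparison and 26.9% in the GFP negative one. For the members the median log2 difference was -2.60 among GFP positive and -2.52 among GFP negative pools, against -0.14 and -0.11 over all tested genes. The summed RPKM of the members was 629 to 946 in E13.5 GFP positive pools against 3468 to 4085 in E10.5 GFP positive pools. Among GFP negative pools the sum was 486 to 788 RPKM at E13.5 against 2705 to 3582 at E10.5. The 6 values of the stages did not overlap for 36 members lower in GFP positive pools (17.1% of all genes) and for 34 lower among GFP negative pools (14.3% of all genes). The members whose values overlapped were Orc1 in GFP positive pools, and Ccne2, Slbp and Rfc5 in GFP negative pools. In pools of cells, fewer replicating cells and less RNA per cell cannot be told apart.

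**Figure D1:**
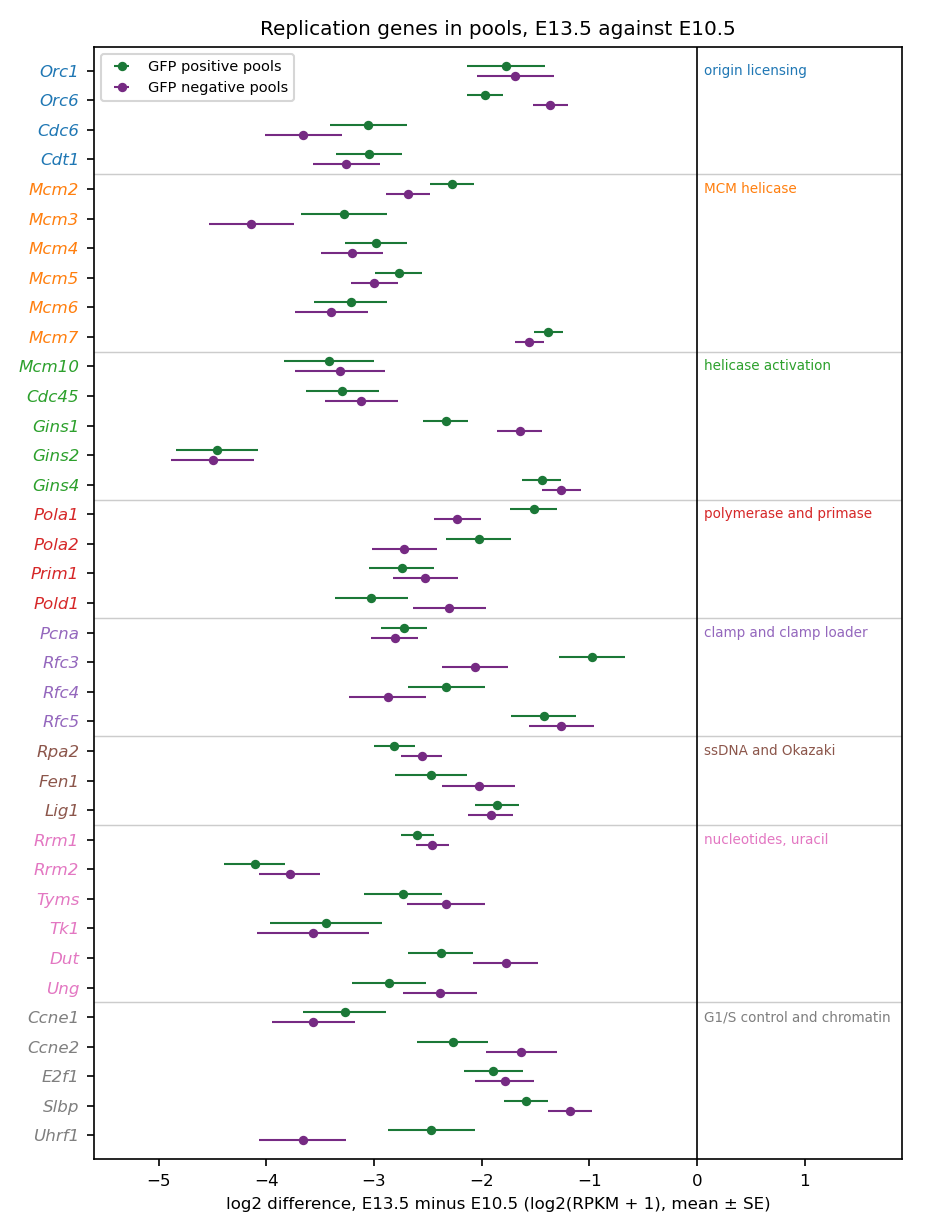
Log2 difference of each of the 37 replication genes between E13.5 and E10.5, on the log2(RPKM + 1) scale, with its standard error, in GFP positive pools (green) and GFP negative pools (purple), 6 pools a group; gene names are coloured by role. Every point lies left of 0, from -4.50 for Gins2 to -0.98 for Rfc3.

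Origin licensing genes fell in both classes. Cdc6, the loader that brings the helicase to origins, had 0.395, 1.06 and 2.56 RPKM (lowest, median and highest pool) in E13.5 GFP positive pools against 9.87, 15.4 and 39.3 RPKM in E10.5 GFP positive pools. In E13.5 GFP negative pools it was listed at 0 in 3 of 6 pools and reached 1.81 RPKM, against 7.90 to 27.4 RPKM in E10.5 GFP negative pools. Its groups did not overlap, and its log2 difference was -3.05 ± 0.36 (SE) for GFP positive and -3.66 ± 0.36 for GFP negative pools. Cdt1, its partner in loading, was 5.16 to 8.18 RPKM in E13.5 GFP positive pools against 49.2 to 79.4 RPKM at E10.5. Orc6, a small subunit of the origin recognition complex, kept 19.3 to 27.8 RPKM in E13.5 GFP positive pools against 85.8 to 112.8 RPKM at E10.5, a log2 difference of -1.97 ± 0.17. Orc1 was low throughout, with 0 to 3.62 RPKM in E13.5 GFP positive pools against 2.64 to 7.68 RPKM at E10.5. Orc1 and Cdc6 would not have passed the filter on low values in the E13.5 pools alone, whereas the other 35 members would.

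The MCM helicase genes split into Mcm7 and the rest. Mcm6 had 5.12, 21.3 and 35 RPKM in E13.5 GFP positive pools against 147.03, 182.6 and 222 RPKM in E10.5 GFP positive pools. Its GFP negative values were 3.90, 16.1 and 25.9 RPKM at E13.5 against 133.2, 153.4 and 177.3 RPKM at E10.5. Its log2 differences were -3.22 ± 0.34 and -3.40 ± 0.34, and -3.08 in GFP negative pools without E13.5 GFP negative replicate 6. Mcm3 was at 2.93, 12.2 and 21.4 RPKM in E13.5 GFP positive pools against 94.4, 102.7 and 129.7 RPKM at E10.5 (-3.28 ± 0.40), and at 0, 5.75 and 7.87 RPKM in E13.5 GFP negative pools against 71.4, 93.9 and 98.4 RPKM at E10.5 (-4.14 ± 0.40). Without E13.5 GFP negative replicate 6, Mcm3 differed by -3.665 in GFP negative pools. Mcm2, Mcm4 and Mcm5 differed by -2.27, -2.98 and -2.77 among GFP positive pools and by -2.69, -3.20 and -2.997 among GFP negative pools. Mcm7, a subunit of the same ring (chr5:138164583-138172422, minus strand), kept far more of its level. It had 68, 82.9 and 112.8 RPKM in E13.5 GFP positive pools against 188, 229 and 246 RPKM at E10.5, and 50.3, 62.9 and 91.1 RPKM in E13.5 GFP negative pools against 165.9, 193 and 211 RPKM at E10.5. Its log2 differences were -1.38 ± 0.14 and -1.56 ± 0.14. The ratio of Mcm7 to Mcm6 RPKM had a median of 3.78 (2.82 to 16.7) in E13.5 GFP positive pools against 1.18 (1.03 to 1.56) at E10.5. Among GFP negative pools the median was 4.10 (3.27 to 12.9) at E13.5 against 1.19 (1.08 to 1.46) at E10.5. The stages did not overlap in either class. The highest ratio of each E13.5 group was that of the pool with the lowest Mcm6. These pools were GFP positive replicate 1 (Mcm6 at 5.12 RPKM) and GFP negative replicate 6 (3.90 RPKM). This ratio was looked at after the values were seen.

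Helicase activation genes held the member with the largest fall. Gins2, a subunit of the GINS complex (chr8:120578633-120589304, minus strand, GRCm38 in GENCODE M21, as for the other gene positions), had 1.17, 4.75 and 12.3 RPKM in E13.5 GFP positive pools against 77.2, 121.01 and 158.8 RPKM in E10.5 GFP positive pools. Its GFP negative values were 0, 4.56 and 6.64 RPKM at E13.5 against 82.1, 97.5 and 114.9 RPKM at E10.5. Its log2 differences were -4.45 ± 0.38 (adjusted p = 2.39e-10) and -4.50 ± 0.38 (adjusted p = 3.96e-10), and -4.07 in GFP negative pools without E13.5 GFP negative replicate 6. Cdc45, the partner that turns the loaded helicase on, was 2.003 to 5.80 RPKM in E13.5 GFP positive pools against 34.7 to 52.8 RPKM at E10.5 (-3.29 ± 0.34). Mcm10, an initiation factor that joins the active helicase, differed by -3.42 ± 0.42 for GFP positive and -3.31 ± 0.42 for GFP negative pools. Gins1 and Gins4, the partners of Gins2 in the 4-subunit GINS complex, had smaller falls. Gins4 was at 17.5 to 42.03 RPKM in E13.5 GFP positive pools against 59.6 to 87.2 RPKM at E10.5, a log2 difference of -1.45 ± 0.18, and -1.26 ± 0.18 in GFP negative pools. Gins1 differed by -2.33 ± 0.21 and -1.65 ± 0.21.

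Polymerase, primase, clamp and loader genes all fell, over a wide range. Pold1, the catalytic subunit of polymerase delta, was 4.37 to 25.9 RPKM in E13.5 GFP positive pools against 76.1 to 113.2 RPKM at E10.5 (-3.02 ± 0.34). Prim1, the primase subunit that makes the RNA primer, differed by -2.74 ± 0.30 in GFP positive pools and Pola2, an accessory subunit of polymerase alpha, by -2.03 ± 0.30. Pcna, the sliding clamp, had 24, 35.7 and 49.3 RPKM in E13.5 GFP positive pools against 201, 244 and 257 RPKM at E10.5 (-2.72 ± 0.21), with -2.81 ± 0.21 in GFP negative pools. Of the clamp loader subunits, Rfc4 differed by -2.33 ± 0.36 in GFP positive pools, Rfc5 by -1.43 ± 0.30 and Rfc3 by -0.98 ± 0.31, the smallest fall of the 37 there. Rfc3 kept 67.4, 72.9 and 83.6 RPKM in E13.5 GFP positive pools against 95.2, 154.8 and 236 RPKM in E10.5 GFP positive pools, an adjusted p of 0.00897 by limma. Its GFP negative difference was -2.07 ± 0.31, and -1.77 without E13.5 GFP negative replicate 6. The order of the members was thus not the same in both classes. For Rfc3 the difference between the classes, tested below, was not called (1.09 ± 0.43, adjusted p = 0.158 by limma). Pola1, the catalytic subunit of polymerase alpha (chrX:93304767-93632155, minus strand), is described with the GFP comparison.

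Genes of lagging-strand maturation and nucleotide supply fell as well. Rpa2, which coats single-stranded DNA, differed by -2.81 ± 0.19 in GFP positive pools, Fen1, the flap endonuclease, by -2.47 ± 0.34, and Lig1, the replicative ligase, by -1.86 ± 0.21. Rrm2, the small subunit of ribonucleotide reductase (chr12:24708241-24714146, plus strand), had the highest median of the members at E10.5. It had 11.6, 17.9 and 32.9 RPKM in E13.5 GFP positive pools against 334, 355 and 394 RPKM in E10.5 GFP positive pools. Among GFP negative pools Rrm2 was at 6.72, 19.6 and 44.6 RPKM at E13.5 against 239.98, 284 and 313 RPKM at E10.5. Its log2 differences were -4.11 ± 0.28 (adjusted p = 4.29e-12) and -3.78 ± 0.28 (adjusted p = 4.76e-11). Rrm1, the large subunit of the same enzyme, differed by -2.60 ± 0.16 and -2.46 ± 0.16. Tk1, the thymidine kinase of dividing cells, was 0.679 to 19.5 RPKM in E13.5 GFP positive pools against 59.8 to 129.3 RPKM at E10.5 (-3.44 ± 0.52). Dut, which removes dUTP, and Tyms, thymidylate synthase, differed by -2.38 ± 0.30 and -2.73 ± 0.36 in GFP positive pools, and Ung, the uracil glycosylase, by -2.86 ± 0.34. Tyms and Pcna have processed pseudogenes in the annotation, so their values are uncertain where reads are shared.

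Among genes of G1/S control and chromatin copying, Ccne1, cyclin E1, fell most in GFP positive pools, to 0.722 to 5.08 RPKM at E13.5 against 28.9 to 41 RPKM at E10.5 (-3.27 ± 0.38). Ccne2, cyclin E2, differed by -2.27 ± 0.33 there and by -1.63 ± 0.33 in GFP negative pools. Uhrf1, which recognises newly copied DNA and brings the maintenance methyltransferase to it, had 0, 6.24 and 15.1 RPKM in E13.5 GFP negative pools against 60.1, 75.6 and 86.4 RPKM in E10.5 GFP negative pools (-3.66 ± 0.40). Without E13.5 GFP negative replicate 6, Uhrf1 differed by -3.15 there. E2f1, an activator of this gene group, was low and fell to 2.57 to 5.63 RPKM in E13.5 GFP positive pools, against 9.68 to 26.6 RPKM at E10.5 (-1.89 ± 0.27). Slbp, which binds the stem-loop of histone mRNAs, kept 42.5 to 59 RPKM in E13.5 GFP positive pools against 144.04 to 176.2 RPKM at E10.5. Among GFP negative pools Slbp had the smallest fall of the 37 (-1.18 ± 0.20), with 43.4 to 129.5 RPKM at E13.5 against 108.7 to 212 RPKM at E10.5, and the highest E13.5 value was in replicate 6, the pool with the lowest mean member level. Without that pool Slbp differed by -1.37, and the smallest fall was that of Rfc5 (-1.12, against -1.26 with all pools).

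All 37 stage calls in each class were kept in each of the 24 fits that left out 1 pool. Without E13.5 GFP negative replicate 6, the median in GFP negative pools was -2.38, and 37 members were still lower. Without the 7 pools in which globin genes held at least 1% of summed RPKM, 1 E10.5 and 4 E13.5 GFP negative pools were left, and the lone E10.5 pool is assumed to vary like the other groups. In that fit 5 members missed the threshold among GFP negative pools, with differences of -1.34 for Ccne2, -0.94 for Orc1, -0.86 for Slbp, -1.87 for Ung and -1.75 for Rfc3 (adjusted p 0.0793 to 0.424). Genes of other cell types and of mitosis differed between the stages too. All 12 pan-neuronal markers were higher at E13.5 in GFP positive pools, with a summed 4787 to 5326 RPKM against 332 to 559 RPKM at E10.5. Among GFP negative pools 10 of 12 were higher and 1 was lower, with a summed 4996 to 5671 RPKM at E13.5 against 1521 to 2771 RPKM at E10.5. All 20 mitosis genes were lower at E13.5 in both classes (median log2 difference -3.64 for GFP positive and -3.99 for GFP negative pools). Neural progenitor markers were lower for 6 of 12 and higher for 1 in GFP positive pools (1560 to 2392 RPKM summed at E13.5 against 3019 to 3534 RPKM at E10.5), and lower for 8 of 12 in GFP negative pools (667 to 1614 RPKM summed at E13.5 against 2803 to 3602 RPKM at E10.5). All 7 tested mesenchyme markers were lower at E13.5 in GFP negative pools (0.718 to 4.78 against 116.4 to 389.6 RPKM summed), as were all 8 microglia markers (0 to 347 against 0 to 631 RPKM), 6 of 8 red blood cell markers (28.6 to 23246 against 42.5 to 78499 RPKM) and 2 of 3 endothelium markers (0 to 55.4 against 2.33 to 70.7 RPKM). In GFP positive pools 2 of 7 mesenchyme and 2 of 8 red blood cell markers were lower, and of the microglia and endothelium markers 0 were called by limma, also 0 at an unadjusted p under 0.05. The part of cell type makeup in the falls was not tested.

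**Figure D2:**
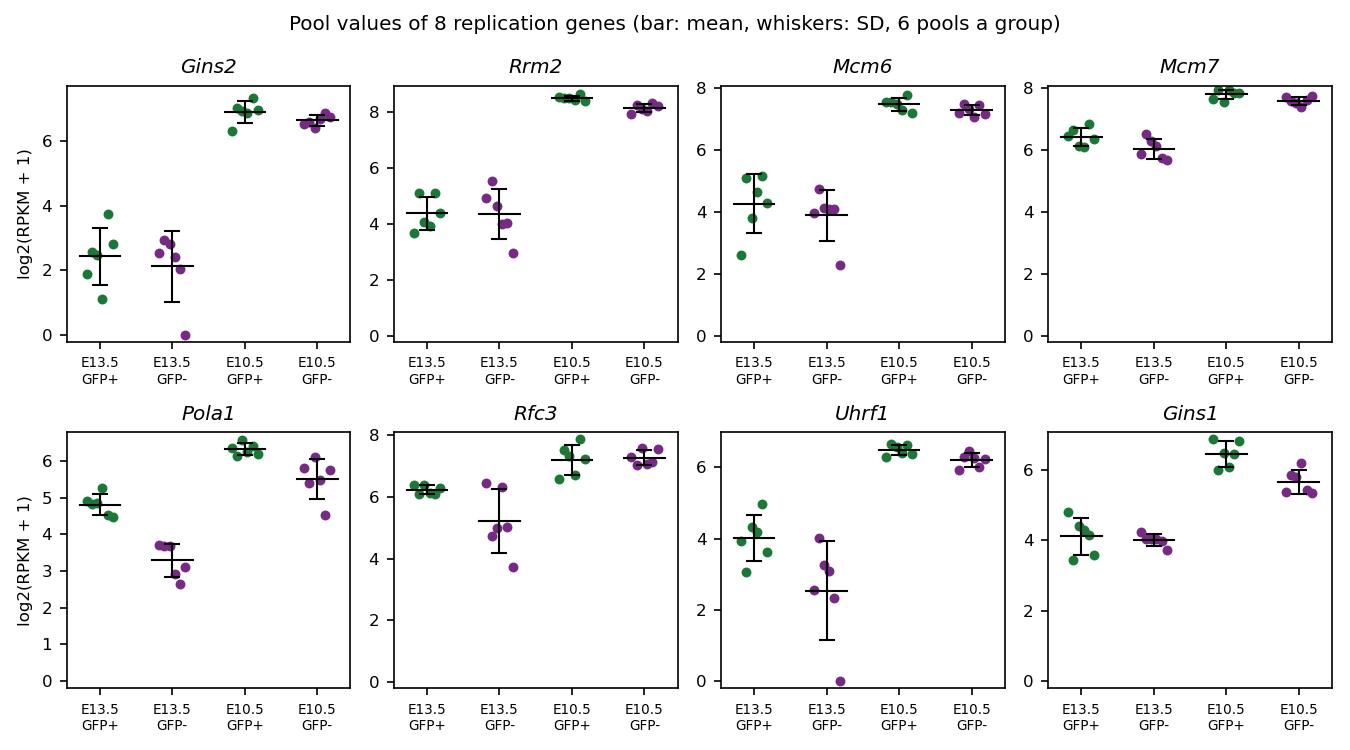
Values of 8 replication genes in each pool on the log2(RPKM + 1) scale, with E13.5 left of E10.5 and GFP positive (green) left of GFP negative (purple); bars are means and whiskers SD of 6 pools. Gins2 and Rrm2 lie far lower at E13.5, Mcm7 less so, and Pola1 is higher in GFP positive than in GFP negative pools at both stages.

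The remaining genes of the replication machinery were read from a further list of 50. In GFP positive pools 40 were lower at E13.5, 2 were higher and 8 were not called, with a median log2 difference of -2.07, beside 22.1% of all genes higher. Among GFP negative pools 41 were lower, 1 was higher and 8 were not called (median -1.67, beside 19.7% of all genes higher). The largest falls were those of Asf1b, a histone chaperone (1.83 ± 1.44 RPKM in E13.5 against 48.1 ± 8.12 RPKM in E10.5 GFP positive pools, SD, n = 6 each, log2 difference -4.28), Atad2 (-3.42) and Hells, a chromatin remodeller (-3.41). Among GFP negative pools Gmnn, which encodes the Cdt1 inhibitor geminin, fell most (7.35 ± 4.53 RPKM at E13.5 against 152.5 ± 21.5 RPKM at E10.5, -4.35), before Asf1b (-3.37) and Hells (-3.35). The genes that were higher at E13.5 were Tk2, the mitochondrial thymidine kinase, in both classes (1.05 for GFP positive and 0.76 for GFP negative pools), and Pold4, a small subunit of polymerase delta, in GFP positive pools (1.23). Not called in either class were Orc3, Orc4, Cdc7, Mcmbp, Pole4, Nme1 and Rrm2b, and also Orc5 in GFP positive and Pold4 in GFP negative pools.

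E2F factors and related cell cycle regulators were mostly lower too. Of 19 tested E2F, DP, pocket protein, cyclin and kinase genes, 16 were lower and 1 higher at E13.5 in GFP positive pools. Among GFP negative pools 17 were lower and 0 higher by limma, with 0 higher also at an unadjusted p under 0.05. Of all genes 29.6% were lower and 22.1% higher in GFP positive pools, and 26.9% lower and 19.7% higher in GFP negative pools. The largest falls in GFP positive pools were Ccnd2, cyclin D2 (18.7 ± 5.35 RPKM at E13.5 against 259.9 ± 41.2 RPKM at E10.5, -3.76), Ccna2, cyclin A2 (-3.63), and the repressor E2f8 (-3.24). For GFP negative pools they were Ccna2 (-3.87), Cdk2, the kinase partner of cyclins E and A (-3.63), and Ccnd1, cyclin D1 (-3.36). Rbl2, the pocket protein p130 known from quiescent cells, was the gene that was higher in GFP positive pools (7.28 ± 2.78 RPKM at E13.5 against 3.94 ± 3.06 RPKM at E10.5, log2 difference 0.85, adjusted p = 0.0384 by limma). That call was lost without E10.5 GFP positive replicate 1, 2, 4 or 5 or E13.5 GFP positive replicate 2, 3, 4 or 6 (adjusted p 0.0537 to 0.0966).

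The comparison of GFP positive with GFP negative pools at E10.5 asked whether Lmx1a-GFP cells differ in their replication genes from the other ventral midbrain cells. Of the 37 members, 2 were higher and 0 lower (limma, adjusted p under 0.05), beside 4.51% of all genes higher and 8.64% lower. At an unadjusted p under 0.05, 3 members were higher and 0 lower, beside 1643 higher and 2292 lower of all 15871 genes. The members' log2 differences were positive for 32 of 37, with a median of 0.26 against -0.01 over all genes. Pola1 had 69.9, 77.6 and 94.7 RPKM in GFP positive pools against 22.2, 48.2 and 68.1 RPKM in GFP negative pools, without overlap. Its log2 difference was 0.81 ± 0.22 (adjusted p = 0.0124). Gins1 had 63, 86.2 and 116.9 RPKM in GFP positive pools against 39.2, 47.8 and 72.4 RPKM in GFP negative pools (0.79 ± 0.21, adjusted p = 0.0101), and a GFP negative pool reached into the GFP positive range. For 3 members (Pola1, Rrm2 and Tyms) every GFP positive pool lay above every GFP negative pool, as for 3.33% of all genes. Rrm2 was 0.35 ± 0.28 (adjusted p = 0.489) and Tyms 0.64 ± 0.36 (adjusted p = 0.283). With the E10.5 pools alone in the fit, 6 members were called higher, adding Tyms (adjusted p = 0.00176), Rrm2 (0.00859), Pold1 (0.0302) and Rrm1 (0.035). In that fit 934 of all 15871 genes were higher, against 715 in the main fit. The differences of the 6 MCM genes were 0.18 to 0.21, and none was called. Ccne1 had the lowest value (-0.35 ± 0.38).

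The E10.5 GFP negative pools also carried transcripts of other cells. Of 8 tested red blood cell markers 7 were lower in GFP positive pools, with summed values of 38.8 to 81.6 RPKM in GFP positive against 42.5 to 78499 RPKM in GFP negative pools, and Hbb-bt and Hbb-bs were at 0 in all GFP positive pools. All 8 microglia markers were lower in GFP positive pools (0 to 1.14 RPKM summed, against 0 to 631 RPKM, with C1qa, C1qb, C1qc, Tyrobp and Aif1 at 0 in all GFP positive pools). Of 7 tested mesenchyme markers 6 were lower (6.21 to 29.3 against 116.4 to 389.6 RPKM summed), and of 3 tested endothelium markers 2 (0.872 to 3.81 against 2.33 to 70.7 RPKM summed). All 12 pan-neuronal markers were lower in GFP positive pools (332 to 559 against 1521 to 2771 RPKM summed), and the mean log2 value of 20 mitosis genes was 6.67 to 6.999 in GFP positive pools against 5.73 to 6.22 in GFP negative pools. Globin genes held at least 1% of summed RPKM in 5 of the 6 E10.5 GFP negative pools. Against the 1 pool left without them, which is assumed to vary like the other groups, Pola1 differed by 0.83, about as with all pools, and Gins1 by 0.245. With 1 pool in that arm 0 members were called (adjusted p = 0.229 for Pola1 and 0.889 for Gins1).

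At E13.5 the GFP comparison called 3 members higher and 0 lower (limma), beside 3.42% of all genes higher and 3.74% lower. At an unadjusted p under 0.05, 7 members were higher and 1, Dut, was lower (-0.63 ± 0.30), beside 1478 higher and 1714 lower of all 15871 genes. Pola1 stood first, with 21.1, 27.6 and 37.2 RPKM in GFP positive pools against 5.21, 9.66 and 12.1 RPKM in GFP negative pools. Its groups did not overlap, and it was the member for which this held (1 of 37, against 1.82% of all genes). Its log2 difference was 1.52 ± 0.22 (adjusted p = 2.80e-05), and it was called in each of the 24 fits without 1 pool. Uhrf1 had 7.44, 15.7 and 30.3 RPKM in GFP positive pools against 0, 6.24 and 15.1 RPKM in GFP negative pools (1.48 ± 0.40, adjusted p = 0.0220). Its groups overlapped, and the call was lost without GFP positive replicate 5 (adjusted p = 0.0639), with a pseudocount of 0.1 (0.0773), with the E13.5 pools alone in the fit (0.147) and without the globin pools (0.0853). Without GFP negative replicate 6, where it was at 0, the difference of Uhrf1 was 0.97 (adjusted p = 0.0236). Rfc3 had 67.4, 72.9 and 83.6 RPKM in GFP positive pools against 12.3, 31.5 and 87.9 RPKM in GFP negative pools (1.02 ± 0.31, adjusted p = 0.0420). The difference of Rfc3 was 0.72 without GFP negative replicate 6. Its call was lost without any single E13.5 GFP positive pool and without GFP negative replicate 2, 3, 5 or 6 (adjusted p 0.0571 to 0.103), and also without the filter on low values, without the variance trend, with the E13.5 pools alone in the fit and without the globin pools (adjusted p 0.0677 to 0.225).

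The direction over the members at E13.5 rested in part on 1 pool. With all pools 28 of 37 differences were positive and the median was 0.31, and without GFP negative replicate 6 these were 21 of 37 and 0.08. In that pool the mean log2 value of the mitosis genes was 0.29, against 0.81 to 3.12 in the other E13.5 GFP negative pools and 2.25 to 3.88 in E13.5 GFP positive pools. Mcm2 would be called without GFP negative replicate 1 or 3 or GFP positive replicate 1 (adjusted p 0.0144 to 0.0464), Mcm3 without GFP positive replicate 6 (adjusted p = 0.0249) and Mcm7 without GFP negative replicate 2 (adjusted p = 0.0277). In the full fit Mcm2 was 0.60 ± 0.20 (adjusted p = 0.0707), Mcm3 1.08 ± 0.40 and Mcm7 0.38 ± 0.14. Without GFP negative replicate 6, Mcm2 was 0.44, Mcm3 0.60 and Mcm7 0.31, and none was called by limma (adjusted p 0.1756 to 0.2306). Neural progenitor markers were also higher in E13.5 GFP positive pools (8 of 12 called higher and 2 lower), with 1560 to 2392 RPKM summed against 667 to 1614 RPKM in GFP negative pools. Red blood cell markers summed to 6.09 to 29.5 RPKM in E13.5 GFP positive pools against 28.6 to 23246 RPKM in E13.5 GFP negative pools (1 of 8 called lower), and microglia markers to 0 to 0.536 against 0 to 347 RPKM (0 of 8 called by limma, also 0 at an unadjusted p under 0.05). The part of these cells in the members' differences was not tested.

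Whether the GFP difference changed between stages was tested directly, as the E13.5 minus the E10.5 GFP difference. No member was called by limma (0 of 37), beside 3.93% of all genes higher and 1.9% lower. At an unadjusted p under 0.05 there were 3 higher (Uhrf1 1.19 ± 0.57, Rfc3 1.09 ± 0.43 and Pola1 0.71 ± 0.31) and 2 lower (Orc6 -0.61 ± 0.23 and Gins1 -0.69 ± 0.29). Of all 15871 genes, 1637 were higher and 1299 lower at that threshold, so both member counts lie under the shares of all genes. Without E13.5 GFP negative replicate 6, Uhrf1 was 0.68 ± 0.37 (adjusted p = 0.323), Rfc3 0.79 ± 0.36 and Pola1 0.68 ± 0.32. The median over the members was -0.22 without that pool and -0.08 with it, and 13 against 18 of 37 were positive. Without E10.5 GFP negative replicate 5 Pola1 (0.91, adjusted p = 0.0396) and Orc6 (-0.72, adjusted p = 0.0467) were called, and without E13.5 GFP negative replicate 1 Rfc3 was (1.34, adjusted p = 0.0432). Of the 50 other replication genes 0 were called, with 1 higher and 4 lower at an unadjusted p under 0.05. Of the E2F group Tfdp2, a DP partner of E2F factors (1.23 ± 0.25, adjusted p = 0.00258), and Ccnd3, cyclin D3 (1.04 ± 0.27, adjusted p = 0.0180), were called higher. These are differences of differences on the log2 scale, and they share pools with the comparisons above.

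The same further lists were read in the GFP comparisons. At E10.5, 3 of 50 other replication genes were higher in GFP positive pools, namely Usp1 (0.56), Dnmt1, the maintenance DNA methyltransferase (0.43), and Rfc2 (0.41), and Nme1 was lower (-0.33). These counts lie near or under the shares of all genes, which were 4.51% higher and 8.64% lower. None of these 4 calls held in every fit without 1 pool. Usp1 lost its call without any single E10.5 GFP positive pool, without E10.5 GFP negative replicate 1, 2, 3, 4 or 6, and without some E13.5 pools. Dnmt1 lost it without GFP negative replicate 1 or GFP positive replicate 2 or 4, Rfc2 without GFP negative replicate 1, 2 or 4 or GFP positive replicate 4 or 5, and Nme1 without GFP negative replicate 5 or GFP positive replicate 4 or 6 (adjusted p 0.0501 to 0.102 in all these fits). At E13.5 Gmnn was higher (18.7 ± 4.39 RPKM in GFP positive against 7.35 ± 4.53 RPKM in GFP negative pools, 1.36), and Mcm8 (-1.14) and Nme1 (-0.36, not called without GFP positive or GFP negative replicate 5) were lower, beside 3.42% of all genes higher and 3.74% lower. Of the E2F group, Ccnd2 (0.95) and E2f5 (0.81) were higher and Ccnd1 lower (-1.15) in GFP positive pools at E10.5. At E13.5 the repressor E2f7 (1.80), the activator E2f3 (1.06) and Tfdp2 (1.05) were higher in GFP positive pools.

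Single cells show how the members were spread over cells at each stage. The mean over cells and members of log2(RPKM + 1) was 4.30, 1.43, 1.12 and 0.92 in order of stage from E10.5 to E13.5. A gene counts as present in a cell where its RPKM is 10 or more. The median number of members present per cell was 22 of 37 in E10.5 cells, 3 in E11.5 cells, and 4 in E12.5 and in E13.5 cells. At least 19 members were present in 92 E10.5 cells (67.2% of the stage, exact 95% Clopper-Pearson interval 58.6 to 74.9%). This held for 13 of the 90 E11.5 cells (14.4%, 7.92 to 23.4%), 12 E12.5 cells (6.74%, 3.53 to 11.48%) and 3 E13.5 cells (2.07%, 0.429 to 5.93%). At E12.5 the share was 12.7% in the 63 cells whose titles begin with C and 3.48% in those with F, and the labels do not say what the letters mean. These intervals cover counting error only. Median estimated depth from the earliest stage to the latest was 1.29, 0.747, 1.40 and 1.77 M reads, and the median number of genes at 1 RPKM or more was 5748, 3567, 4266 and 4287, so E13.5 cells had fewer genes detected than E10.5 cells at a greater depth. RPKM values cannot be thinned to a common depth.

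**Figure D3:**
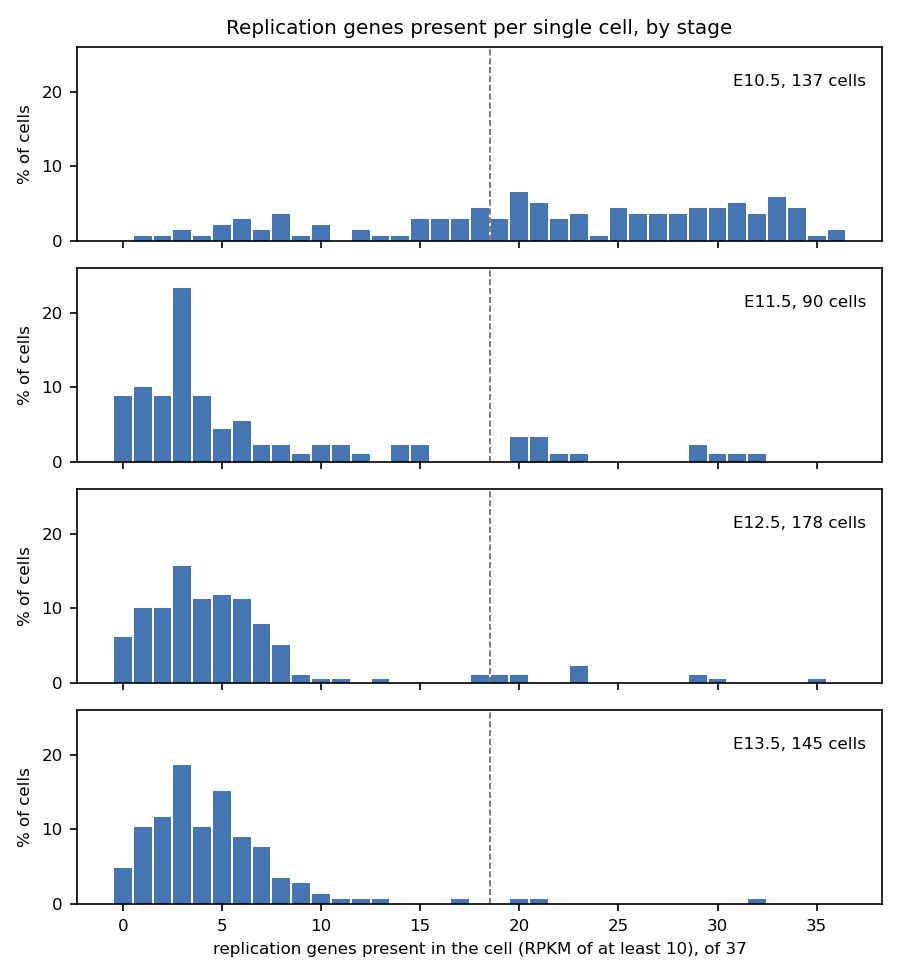
Share of single cells by the number of the 37 replication genes present at an RPKM of at least 10, by stage; the dashed line separates cells with at least 19. At E10.5 most cells lie right of the line (67.2%), and at the later stages most lie between 0 and 8 with a thin tail up to 35.

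The fall was shared by nearly every member. From E10.5 to E13.5 the mean log2(RPKM + 1) over cells differed by -1 or lower for 36 of 37 members, against 23.2% of the 13739 genes present in at least 10 cells. The median difference of the members was -3.39 and that of all these genes -0.32. These differences have no test, since each stage is 1 sample. Rrm2 had means of 7.4, 2.13, 1.39 and 0.69 from the earliest stage to the latest, the largest fall of the 37 (-6.71), and was present in 83.9%, 25.6%, 17.4% and 8.28% of cells. Where it was present its median was 469.8, 389.8, 176.7 and 167.1 RPKM. Mcm2 differed by -5.57, Mcm6 by -5.06, Uhrf1 by -4.87 and Mcm3 by -4.75 between E13.5 and E10.5. The smallest differences were those of Orc1 (-0.70), E2f1 (-1.11), Ccne2 (-1.62), Ung (-1.75) and Cdc6 (-1.84), which were also low at E10.5. Cdc6 was present in 29.2% of cells at E10.5 and in 0 at E13.5, which allows a share of up to 2.51% by the exact interval.

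The order of the members differed between stages. At E10.5 the highest means were those of Mcm7 (7.72), Rrm2 (7.404), Mcm2 (6.49), Pcna (6.201) and Rrm1 (6.14), and at E13.5 those of Mcm7 (3.83), Dut (2.57), Orc6 (2.13), Slbp (2.12) and Rfc3 (1.99). The lowest at E10.5 were Orc1 (0.78), E2f1 (1.26), Ung (1.83), Cdc6 (1.84) and Ccne2 (2.16). Over all cells of the 4 stages, whose levels and cell numbers differ, Mcm7 (4.91), Dut (3.28), Slbp (3.13), Pcna (3.10) and Rrm1 (2.94) were highest and Orc1 (0.31), Cdc6 (0.53), E2f1 (0.61), Ung (0.65) and Ccne1 (0.84) lowest. Mcm7 was present in 92% of E10.5 cells and in 52.2%, 50.6% and 52.4% of cells at the later stages, so it stayed present in about as many cells from E11.5 on. Its median where present was 367, 242, 165.3 and 127.8 RPKM at these stages. Mcm6, of the same ring, was present in 77.4%, 22.2%, 15.2% and 10.3% of cells at the same stages. Dut (35.9% of cells), Orc6 (32.4%), Slbp (29.7%) and Pcna (28.97%) were also present in a sizeable share of E13.5 cells. Rfc3, with the smallest fall in GFP positive pools, was present in 51.8% of E10.5 cells and then in 23.3%, 28.1% and 26.9%.

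Replication and mitosis genes marked sets of cells that overlapped in part, and the overlap was not tested against that of independent sets. At E10.5, 57 cells had at least 19 replication genes and at least 11 of the 20 mitosis genes present (41.6%), 35 had the replication genes alone (25.5%), 9 the mitosis genes alone (6.57%) and 36 neither (26.3%). The mean log2 level of pan-neuronal markers was 1.28 in the first of these classes, 0.92 in the second, 0.80 in the third and 2.38 in the last. At E11.5, 7 cells had both, 6 the replication genes alone and 4 the mitosis genes alone. These counts were 5, 7 and 3 at E12.5 and 1, 2 and 2 at E13.5. At E13.5 96.6% of cells had neither, with a neuronal mean of 5.55. Pearson's r across cells between the mean log2 level of the members and that of the mitosis genes was 0.34, 0.72, 0.62 and 0.44 from E10.5 to E13.5, each over all cells of its stage. With pan-neuronal markers r was -0.37, -0.58, -0.48 and -0.28, and with the number of genes at 1 RPKM it was 0.49, 0.52, 0.30 and 0.36. Spearman's rho with the mitosis genes was 0.28, 0.67, 0.28 and 0.24, and with the pan-neuronal markers -0.11, -0.53, -0.21 and 0.05, below 0.3 in size at every stage but E11.5. Both values of each pair come from the same library and share its depth, and these values are descriptions. Within E10.5 cells, the members whose level followed that of the other 36 most closely were Uhrf1 (r = 0.76), Rrm2 (0.75), Pcna (0.70) and Mcm3 (0.68), and those that followed it least were Orc1 (0.17) and E2f1 (0.26).

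Cells at E10.5 were also divided by Mki67, a gene of cycling cells that is highest late in the cycle. Of these cells 69 had Mki67 present at 10 RPKM or more. These had a median of 27 members present and a mean member level of 4.96, against 18 members and 3.64 in the 68 cells below that level. At least 19 members were present in 60 of the 69 (86.96%) and in 32 of the 68 (47.1%). The median number of genes at 1 RPKM was 6130 and 5052 in these classes. The mean level was higher in the Mki67 cells for 33 of 37 members. Pold1 differed most (6.54 in Mki67 cells against 3.62 in the others), followed by Rfc4 (5.98 against 3.29), Rrm2 (8.62 against 6.17), Gins1 (4.66 against 2.44) and Pola1 (6.11 against 4.003). The 4 members that were not higher were Ung (1.32 in Mki67 cells against 2.35 in the others), Mcm2 (6.38 against 6.61), Cdt1 (3.57 against 3.66) and Orc1 (0.77 against 0.80). Mcm6 (6.07 against 5.90), Pola2, Ccne2 and E2f1 differed by less than 0.4. These are values of 1 sample, without a test. At the later stages the Mki67 class held 14, 14 and 4 cells.

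**Figure D4:**
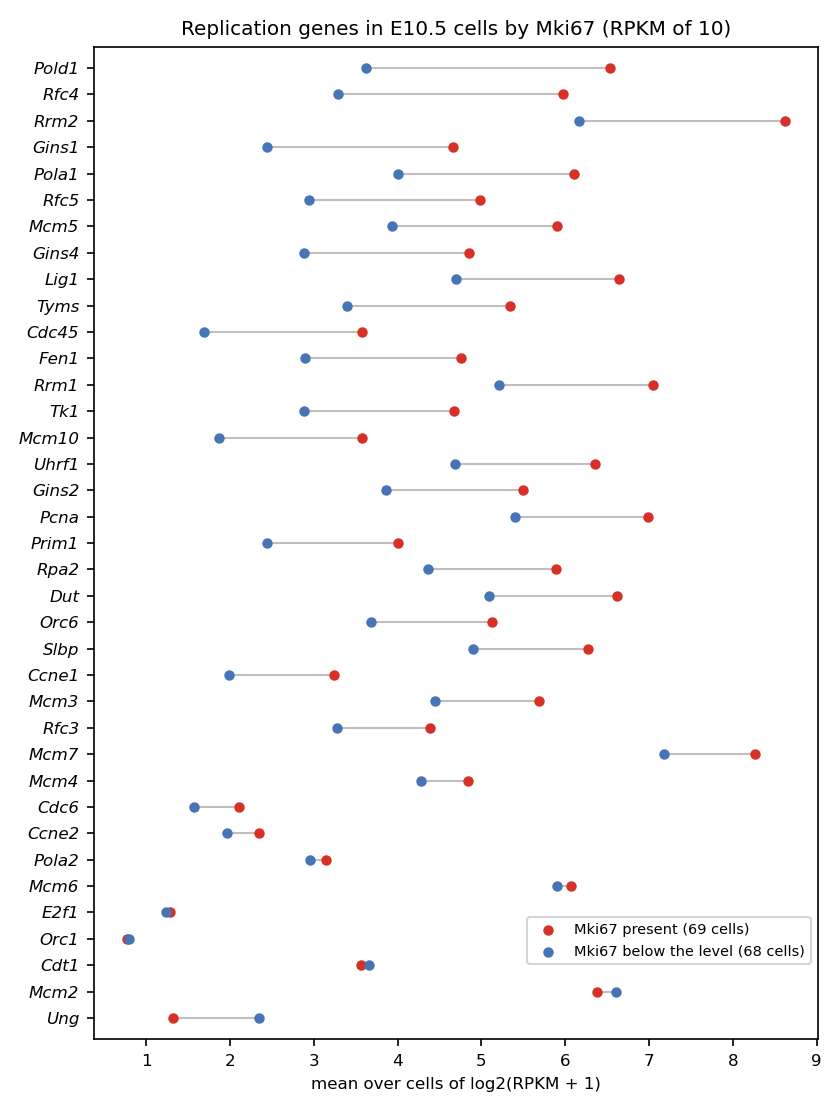
Mean over cells of log2(RPKM + 1) of each of the 37 replication genes in E10.5 cells with Mki67 at 10 RPKM or more (red, 69 cells) and below it (blue, 68 cells), sorted by the difference. Pold1 and Rfc4 are farthest apart, and Mcm6, Pola2, E2f1, Orc1, Cdt1, Mcm2 and Ung show no gain in the Mki67 cells or one below 0.2.

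Divided by Lmx1a instead, the 98 E10.5 cells with Lmx1a at 10 RPKM or more had a mean member level of 4.50 and a median of 23.5 members present, against 3.82 and 20 in the 39 cells below it. The direction was the same for 33 of 37 members, and the median number of genes at 1 RPKM was 5852 in the Lmx1a cells and 5181 in the others. At E11.5 the mean was lower in the 38 Lmx1a cells (1.32) than in the 52 others (1.52), with 10 of 37 members higher. There 7.89% of Lmx1a cells (exact 95% interval 1.66 to 21.4%) and 19.2% of the others (9.63 to 32.5%) had at least 19 members present, and the median number of genes at 1 RPKM was 4327 and 3212. At E12.5 the means were 1.27 in 90 Lmx1a cells and 0.97 in 88 others, with 31 of 37 members higher. At E13.5 the means were 0.93 in 73 Lmx1a cells and 0.92 in 72 others, with 18 of 37 members higher. Across the 37 members the stage difference in pools and that in single cells were loosely related (Pearson's r 0.39 for GFP positive and 0.43 for GFP negative pools, over 37 genes that are not independent replicates). Both measures depend on the offset of 1 and on each gene's level.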

How the data were processed

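The authors deposited RPKM for 24 pools and log2 values for 550 single cells, which the lowest value shows to be log2(RPKM + 0.001) and which were turned back into RPKM. Per the submitters' processing notes, reads were aligned with STAR 2.3.0 to mm10. Which counter, annotation or filters they used is not given in the sources used here. Members and lists were chosen with earlier results of these data known.

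The 15871 genes that reached 1 RPKM in 6 or more pools were fitted on the log2(RPKM + 1) scale with limma 3.58.1 (R 4.3.3), with 4 group means and a variance trend, and p-values were adjusted by Benjamini-Hochberg over all tested genes at a threshold of 0.05. Fold changes of low genes are understated on this scale. Called members with the 5 largest differences in each direction, and in cells the 5 highest, lowest, most and least changed members, are named, as are the 3 largest called genes of each further list and members not called. On simulated data for the E13.5 GFP comparison (14881 genes) the fit found 64 of 100 genes changed 2-fold and 94 of 100 changed 4-fold, with 9 false calls among 167. The changed genes were drawn only from genes above a set level in E13.5 GFP negative pools, with independent normal spread. These rates therefore do not describe low members such as Orc1 and Cdc6.

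Depth was estimated from the steps of low values of genes with 1 transcript and is rough, since in the median pool 50.1% of these values lay within 0.05 of such a step. At 2 kb, 10 RPKM then stands for about 55.2 reads at the median depth of pools and 27.0 at that of cells. The cells numbered 137, 90, 178 and 145 from E10.5 to E13.5 (63 with C and 115 with F titles at E12.5), and these are the denominators of shares by stage. Correlations between pools of a group were 0.934 to 0.960, and no columns were identical. All cells had over 1000 genes at 1 RPKM, so a filter at that number left out none.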

Additional observations from a re-analysis of the deposited data

Results flagged for a closer look

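Each member was checked in each of the 4 groups of pools for 1 pool far from the other 5 on the log2 scale (a gap over range above Dixon's 95% critical value). This picked out 10 values over the 37 members and 4 groups, and chance gives about 1 in 20 groups, or 7.4. E13.5 GFP negative replicate 6 accounts for 4 of the 10. In that pool Cdt1 was at 0.463 RPKM against 5.12 to 9.07 RPKM in the other 5 (ratio 0.7416), Mcm6 at 3.90 RPKM against 14.6 to 25.9 RPKM (0.6811), and Mcm3 (0.7824) and Gins2 (0.6968) at 0 against at least 4.52 and 3.12 RPKM. The other 6 were in 6 different pools. Mcm3 was low in E10.5 GFP negative replicate 4 (71.4 RPKM against 89.8 to 98.4 RPKM, ratio 0.7146). Cdc45 was high in E10.5 GFP negative replicate 3 (45.3 against 28.9 to 31.4 RPKM, 0.8173). Rfc4 was low in E13.5 GFP positive replicate 1 (9.85 against 32.8 to 60.5 RPKM, 0.6553). Rrm1 was low in E13.5 GFP positive replicate 4 (11.8 against 23.5 to 26 RPKM, 0.8686). Tk1 was high in E10.5 GFP positive replicate 5 (129.3 against 59.8 to 78.9 RPKM, 0.6402). E2f1 was low in E10.5 GFP negative replicate 1 (7.15 against 13.3 to 18.7 RPKM, 0.6365).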

How the results depend on the processing

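No paired analysis was possible because the labels give the pools no replicate numbers of their own. No result reversed. In every setting run, including those without 1 pool (37 lower, 0 higher in each class), the members' stage counts stayed within 1.5 times. Leaving out 1 pool gave 2 members higher at E10.5 in each fit, 1 to 4 higher at E13.5 and 0 to 1 in each direction for the interaction, with 0 lower in both GFP comparisons. With the groups compared alone in the fit, 6 members were higher at E10.5 (also Pold1, Rrm1, Rrm2 and Tyms) and 1 at E13.5. Beside these, 934 and 421 of all 15871 genes were higher. Without the globin pools, a setting chosen after the data were seen, 1 member was higher at E13.5, and at E10.5 only 1 GFP negative pool was left.

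Settings for the further lists were also chosen after the data were seen. For the other replication genes at E10.5, higher calls were 5 (pseudocount 3), 8 (groups compared alone) and 0 (no globin pools), and lower calls 0 when median centred, without the variance trend or without globin pools. Lower calls at E13.5 were 1 without the trend or the globin pools, stage calls in GFP negative pools were 2 higher (quantile normalized), and 0 higher and 27 lower without globin pools, and 1 interaction was lower with a pseudocount of 3. For the E2F group at E10.5, higher calls were 5 (groups compared alone) and 0 (no globin pools), and lower calls 0 (pseudocount 0.1, no globin pools) or 2 (pseudocount 3, groups compared alone). The higher stage call in GFP positive pools was 0 without the filter, with the groups compared alone or without globin pools, and interaction calls were 0 without globin pools. Leaving out 1 pool, the other replication genes had 0 to 3 higher and 0 to 2 lower at E10.5, 1 higher and 1 to 4 lower at E13.5, 2 higher and 39 to 41 lower by stage in GFP positive and 1 higher and 40 to 41 lower in GFP negative pools, and 0 to 1 interaction calls in each direction. The E2F group had 2 to 3 higher and 1 to 2 lower at E10.5, 3 to 5 higher and 0 lower at E13.5, 0 to 1 higher and 15 to 17 lower by stage in GFP positive and 0 to 1 higher and 16 to 18 lower in GFP negative pools, and 2 to 3 higher and 0 to 1 lower interaction calls. The cause of these moves was not tested.

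In single cells, E10.5 cells with at least 19 members present were 75.9% at a presence level of 1 RPKM and 56.9% at 30 RPKM. At E12.5 they were 12.7% of cells titled C and 3.48% of those titled F. Members near 1 RPKM at E13.5, such as Orc1 and Cdc6, rest on few reads.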
